A study of Homo sapiens with 18 samples.

Results

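CD10- cells of 2 human mammary epithelial lines, M1B26 and MC26, were compared on 4 Affymetrix HG-U133 Plus 2.0 arrays, 2 for each line, out of 18 arrays in the series. All genes measured on the arrays entered, with 1 probe set per gene, and 12171 genes lay above background and were tested. M1B26 cells came from MCF10A cells that were first sorted for the BMP receptor BMPR1B, then exposed to BMP2 and IL6, and grown out from soft-agar clones that were kept in both factors. MC26 cells came from MCF10A cells held for long in BMP2 and IL6 without that sort or the clonal step. The labels state BMP2 at 5 ng/ml in one field and at 10 ng/ml in another, and IL6 at 10 ng/ml. MCF10A is an immortalised, nonmalignant mammary line that lacks CDKN2A, and the untreated MCF10A-CT cells, sorted the same way, serve as a common origin. In each line, CD10- cells were separated from CD10+ cells by flow cytometry with an antibody to membrane CD10. The labels give 1 derivation of each line, so the treatment of a line and its single derivation cannot be told apart, and they call the 2 arrays of every group biological replicates without describing the cultures. The comparison asks how far the cells without CD10 differ between the 2 transformed lines.

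CD10, encoded by MME, is a zinc-dependent endopeptidase of the cell surface that cuts small signalling peptides and marks basal and progenitor cells in the breast. Mammary epithelial cells hold to each other through cadherins, tight junctions and desmosomes, and they can lose these contacts and take on mesenchymal traits, a shift in which the repressors ZEB1 and ZEB2 and the microRNAs of the miR-200 and miR-205 families act against each other. BMP2 signals through receptors such as BMPR1B to SMAD proteins and ID genes, and IL6 signals through STAT3 to genes such as SOCS3.

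MME, the gene of the sort marker, had intensities of 56.4 and 15.95 in CD10- M1B26 cells, against 27.9 and 6.39 in CD10- MC26 cells. CD10+ cells had 1269 and 1021 in M1B26 and 69.85 and 90.7 in MC26. MME thus lay below the CD10+ cells of the same line on all 4 CD10- arrays, and the difference between the CD10- lines did not pass (log2 1.09 ± 0.64 SE, adjusted p = 0.819 by limma). Replicate 1 was the higher one in both lines. Of the defining markers of mammary epithelium, 9 of 12 had a probe set named here, all 9 were above background on each of the 4 arrays, and their summed intensity was 24390 to 29810 in M1B26 and 20010 to 22410 in MC26. For leukocyte markers, the sums over 15 genes were 761 to 776 in M1B26 and 561 to 756 in MC26. Of these 15 genes, 8 and 11 were above background on the M1B26 arrays and 9 and 7 on the MC26 arrays. PTPRC, which leukocytes carry, was at 0.572 to 8.86 over the 4 arrays, below background. For endothelial markers, the sums over 11 genes were 181 to 189 in M1B26 and 145 to 187 in MC26. The 11 fibroblast markers summed to 571 to 746 in M1B26, against 307 to 390 in MC26, with COL3A1 at 1.04 to 3.66, below background. Above background were 6 and 8 of the 11 on the M1B26 arrays and 5 and 6 on the MC26 arrays. All 5 fibroblast markers that were tested were above 0 (median log2 difference 1.07), with 0 calls. LUM, which encodes lumican, a matrix proteoglycan, had 45.75 and 15.4 in M1B26, against 0.223 and 0.205 in MC26, below background. DCN, the proteoglycan decorin, had 235 and 175.5 in M1B26, against 26.4 and 56.8 in MC26. These markers thus moved with the line difference, and their part in the results below was not tested. In sorted bulk samples, fewer cells of a type and less RNA per cell cannot be told apart. CDKN2A had intensities of 6.43 and 3.43 in M1B26 and 15.6 and 11.05 in MC26, near background (log2 difference -1.30 ± 0.54, adjusted p = 0.599). Correlations of the log2 levels over genes were 0.970 between the M1B26 arrays, 0.976 between the MC26 arrays, and 0.966 to 0.970 across the lines.

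Few genes passed between the CD10- cells of the 2 lines. Of the 12171 genes, 10 passed the test (0.0822%), 6 higher (0.0493%) and 4 lower (0.0329%) in M1B26. The higher genes were SRGN, CDH11, KIR2DL5A, AUTS2, MARCKSL1 and UGT8, and the lower ones ADD2, PCSK1N, MALAT1 and CYP1B1. At an unadjusted p under 0.05, 877 genes passed, and the median gene was higher in M1B26 by 0.09 on the log2 scale. A difference of at least log2 1, passed or not, was seen in 252 genes upwards and 200 downwards, against 1123 and 477 in CD10+ cells. The test was limma on log2(intensity + 1), with the SE from a fit of all 9 groups and an adjusted p under 0.05 by Benjamini-Hochberg. The calls rest on limma's moderation, which draws the spread of each gene towards that of genes of like intensity. Without it, an unmoderated test in the fit of all 9 groups and an unpaired t-test on the 4 arrays each left 0 genes after adjustment. At an unadjusted p under 0.05 they gave 928 and 767. A moderated fit of only the 4 arrays compared gave 13 genes, 6 of them among the 10.

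SRGN encodes serglycin, the core protein of secretory granule proteoglycans. It had intensities of 2579 and 1952 in CD10- M1B26 cells, against 196 and 92.3 in CD10- MC26 cells, and 400 and 299.9 in CD10- MCF10A-CT cells. The arrays did not overlap, and the log2 difference was 4.05 ± 0.50 (adjusted p = 0.00243), a 16.6-fold difference. Of the other 2 SRGN probe sets, one gave 3.45 and the other lay below background. The same difference was seen on separate arrays of the lines, at 4.93 in CD10+ cells (adjusted p = 2.08e-05) and 4.28 in unsorted cells (adjusted p = 0.0018). SRGN passed with each of the 4 arrays left out in turn.

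CDH11, a cadherin of mesenchymal cells, had intensities of 106 and 116 in CD10- M1B26 cells, against 7.03 and 5.13 in CD10- MC26 cells. It was near background in MC26 and also in CD10- MCF10A-CT cells, at 5.6 and 7.66, so the log2 difference of 3.999 ± 0.54 (adjusted p = 0.00486) is uncertain in size. In CD10+ M1B26 cells CDH11 reached only 33.0 and 26.4, against 4.41 and 6.67 in CD10+ MC26 cells. CDH11 was thus a mesenchymal gene that stood higher in the CD10- than in the CD10+ cells of M1B26, and its line difference was 1.76 ± 0.76 larger in CD10- cells, which did not pass (adjusted p = 0.4). CDH11 lost its call without M1B26 replicate 2 (adjusted p = 0.0567) or MC26 replicate 2 (adjusted p = 0.0569).

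AUTS2, which encodes a nuclear protein of Polycomb-type complexes active in neural development, had intensities of 106.5 and 77.7 in CD10- M1B26 cells, against 3.02 and 9.15 in CD10- MC26 cells. It was near background in MC26 but not in CD10- MCF10A-CT cells, at 48.6 and 45.4. The log2 difference was 3.85 ± 0.47 (adjusted p = 0.00243), and AUTS2 passed with each array left out. The other 2 AUTS2 probe sets, both below background, gave -0.16 and -0.79, and with the mean of all of them AUTS2 did not pass (log2 difference 0.965, adjusted p = 0.661). In CD10+ cells the difference was 1.18 (adjusted p = 0.119), and the gap of 2.66 ± 0.66 between the CD10- and CD10+ differences did not pass (adjusted p = 0.0632).

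KIR2DL5A had intensities of 264.5 and 129.5 in CD10- M1B26 cells, against 9.29 and 13.15 in CD10- MC26 cells, with a log2 difference of 3.95 ± 0.51 (adjusted p = 0.00357). Its probe set belongs to a family of near-identical natural killer cell receptor genes and may bind related transcripts, so the transcript it reads is uncertain. The difference was 5.15 in CD10+ cells and 3.45 in unsorted cells, both past the threshold (adjusted p = 1.94e-05 and 0.0118). KIR2DL5A lost its call in CD10- cells without MC26 replicate 1 (adjusted p = 0.0506).

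MARCKSL1, a membrane-bound regulator of the actin skeleton, had intensities of 676 and 599 in CD10- M1B26 cells, against 128 and 140 in CD10- MC26 cells, and 147 and 177 in CD10- MCF10A-CT cells. The replicates lay close together, and the log2 difference was 2.24 ± 0.35 (adjusted p = 0.0161). UGT8, which makes galactosylceramide, had 617.5 and 335 in CD10- M1B26 cells, against 162 and 127 in CD10- MC26 cells. CD10- MCF10A-CT cells had 451 and 685 for UGT8, nearer to M1B26 than to MC26. The log2 difference of UGT8 was 1.66 ± 0.29 (adjusted p = 0.0485). MARCKSL1 lost its call when any 1 of the 4 arrays was left out (adjusted p = 0.0827 to 0.139), and UGT8 kept it only without M1B26 replicate 2 (adjusted p = 0.0201), with 0.139 to 0.579 without the others.

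ADD2, a subunit of adducin that caps actin at the spectrin skeleton, had intensities of 5.06 and 25.4 in CD10- M1B26 cells, against 154 and 89.3 in CD10- MC26 cells, and 76.6 and 86.1 in CD10- MCF10A-CT cells. PCSK1N, an inhibitor of the prohormone convertase PCSK1, had 9.19 and 5.37 in CD10- M1B26 cells, against 83.7 and 41 in CD10- MC26 cells, and 56.9 and 85.8 in CD10- MCF10A-CT cells. Both genes were near background in CD10- M1B26 cells, and the other 2 lines lay together above them. The log2 difference of ADD2 was -3.22 ± 0.48 (adjusted p = 0.014), and 5 further ADD2 probe sets ran between -5.07 and -0.10. The log2 difference of PCSK1N was -2.89 ± 0.50 (adjusted p = 0.0485). ADD2 lost its call without MC26 replicate 1 (adjusted p = 0.15), and PCSK1N when any 1 of the 4 arrays was left out (adjusted p = 0.0569 to 0.317).

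MALAT1, an abundant noncoding RNA that stays in the nucleus, had intensities of 726 and 972 in CD10- M1B26 cells, against 2761 and 2821 in CD10- MC26 cells, and 5697 and 7100 in CD10- MCF10A-CT cells. The log2 difference was -1.73 ± 0.21 (adjusted p = 0.00243) and passed with each array left out. In unsorted cells MALAT1 had 5039 and 4045 in M1B26 and 4518 and 4370 in MC26, a log2 difference of 0.02, and the gap of -1.75 ± 0.29 between the CD10- and unsorted differences did not pass (adjusted p = 0.195). In CD10+ cells MALAT1 had 1334 and 1177 in M1B26 and 3544 and 2333 in MC26, a log2 difference of -1.20 (adjusted p = 0.00168). MALAT1 was thus lower in both sorted fractions of M1B26, and its relation to the sorting was not tested. The other MALAT1 probe sets ran between -2.49 and 0.13, and with the mean of all of them MALAT1 did not pass (log2 difference -1.20, adjusted p = 0.345).

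CYP1B1, a cytochrome P450 that oxidises oestrogens and polycyclic hydrocarbons, was the only one of the 10 genes whose difference had the opposite sign in CD10+ cells. It had intensities of 261 and 154 in CD10- M1B26 cells, against 605 and 635 in CD10- MC26 cells, a log2 difference of -1.62 ± 0.27 (adjusted p = 0.0377). In CD10+ cells it had 1924 and 1965 in M1B26 and 525 and 804 in MC26, a log2 difference of 1.58 (adjusted p = 0.00161). The CD10- difference of CYP1B1 was lower than the CD10+ difference by 3.20 ± 0.39 (log2 -3.20, adjusted p = 7.24e-04), which passed with each of the 8 arrays left out. The CD10- difference itself kept its call only without M1B26 replicate 1 (adjusted p = 0.0159), with 0.15 to 0.265 without the others. All 4 CYP1B1 probe sets were lower in CD10- M1B26 cells, by log2 -2.42 to -1.45.

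On the separate arrays of the same lines, 9 of these 10 genes had the same direction in CD10+ cells and 8 of 10 in unsorted cells. Of them 7 and 4 were past the threshold in that direction. These arrays share the single derivation of each line, so they are not independent repeats of the line difference. All genes tested gave 1421 calls in CD10+ cells (11.7%) and 12 in unsorted cells (0.0986%).

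**Figure D1:**
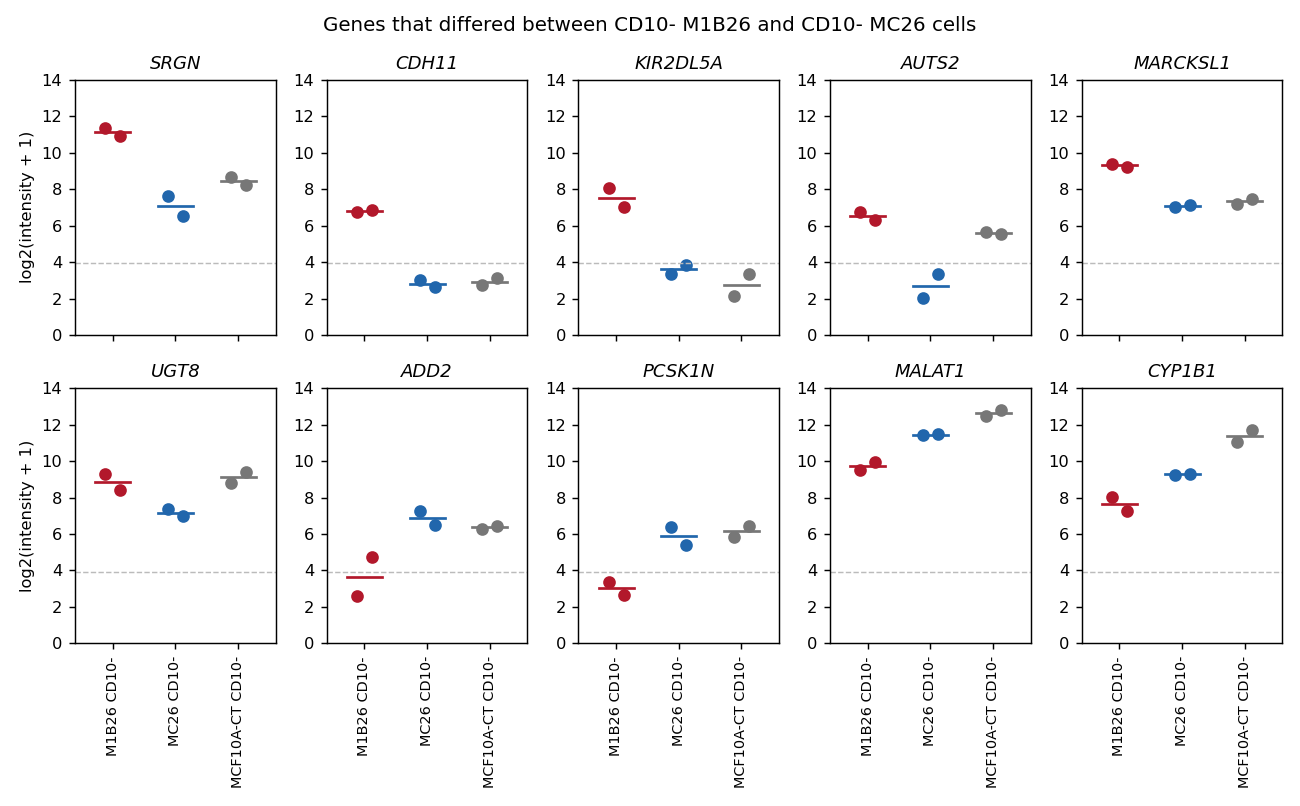
Log2(intensity + 1) of the 10 genes that passed, on the arrays of CD10- M1B26 cells (red), CD10- MC26 cells (blue) and CD10- MCF10A-CT cells (grey). Points are single arrays, bars the mean of 2, and the dashed line the background level of 3.93. M1B26 and MC26 points do not overlap in any of the 10, and CDH11, KIR2DL5A, AUTS2, ADD2 and PCSK1N lie below the dashed line on average in one of the lines.

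The next question was whether the line difference was the same in CD10- and in CD10+ cells. In CD10+ cells 1421 genes passed, 1110 higher (9.12%) and 311 lower (2.56%) in M1B26, and after quantile normalization 562 higher and 547 lower. The difference of the differences itself passed for 154 genes (1.27%), with the CD10- difference above the CD10+ difference in 74 (0.608%) and below it in 80 (0.657%). Of the 74, 71 passed in CD10+ cells and 0 in CD10- cells, with a median line difference of 0.04 in CD10- cells and -2.12 in CD10+ cells. Of the 80, 78 passed in CD10+ cells and 1, CYP1B1, in CD10- cells, with medians of 0.03 and 2.54. Of the 74 genes 69, and of the 80 genes 63, were within log2 1 between the CD10- cells of both lines. In CD10+ cells 70 of the 74 and 78 of the 80 were apart by log2 1 or more. Of all 12171 genes, 252 were higher and 200 lower by log2 1 between the CD10- lines, against 1123 and 477 in CD10+ cells. Lying within log2 1 in CD10- cells was thus usual and does not show that these genes were alike there. The CD10- and CD10+ arrays of one line that carried the same replicate number deviated together, with a correlation of 0.185 for M1B26, 0.361 for MC26 and 0.635 for the untreated MCF10A-CT line. A fit that kept line and replicate number as a random block gave 693 genes in place of 154, 444 of them below 0, and with it MME passed as well (-2.73, adjusted p = 0.0295). The split depended on the scale, with 102 above and 75 below after quantile normalization, 123 and 78 with the arrays centred on the tested genes, and 67 and 121 with a pseudocount of 16. The median of all genes was -0.11 as deposited, 0.04 after quantile normalization and 0.08 after centring. Leaving out single arrays gave 68 (without MC26 CD10+ replicate 1) to 166 genes, with 73 without M1B26 CD10- replicate 2 and 83 or 84 without MC26 CD10- replicate 1 or either CD10+ M1B26 replicate.

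**Figure D2:**
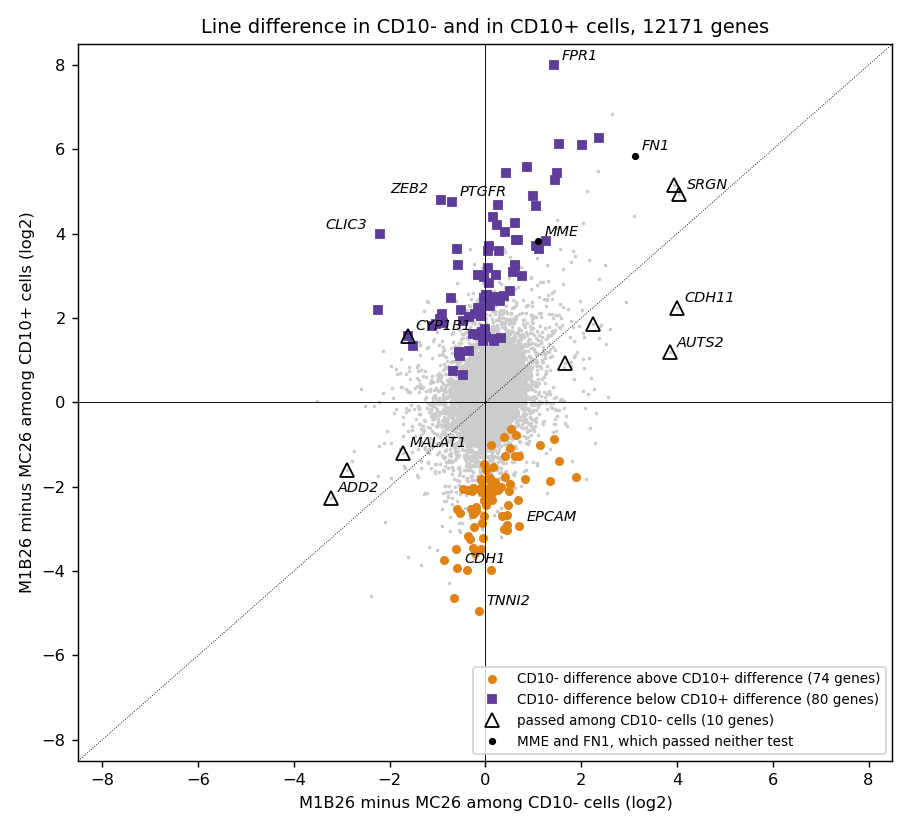
Difference M1B26 minus MC26 among CD10- cells (x axis) and among CD10+ cells (y axis), log2, for 12171 genes (grey). Orange circles are the 74 genes and purple squares the 80 genes whose 2 differences differed, and open triangles the 10 genes that passed among CD10- cells. The coloured points run up and down around 0 on the x axis.

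Among the 74 genes were 2 of 11 adherens junction genes, 2 of 13 tight junction and polarity genes, 3 of 10 desmosome genes and 8 of 17 regulators and surface genes of epithelium. Of all genes tested 0.608% were among the 74, and the lists were chosen with earlier results of these data known. CDH1, which encodes E-cadherin, had intensities of 481 and 718 in CD10- M1B26 cells, against 1016 and 777 in CD10- MC26 cells. The log2 difference of -0.60 ± 0.24 did not pass (adjusted p = 0.595). A second, dimmer CDH1 probe set had the opposite sign, at 0.75, with 26.5 and 32.0 in CD10- M1B26 cells against 19.8 and 14.35 in CD10- MC26 cells. In CD10+ cells CDH1 had 39.6 and 54.2 in M1B26 and 721 and 722 in MC26. The CD10- difference lay above the CD10+ difference by 3.34 ± 0.35 (adjusted p = 1.63e-04). EPCAM, an adhesion molecule of epithelium, had 2173 and 2857 in CD10- M1B26 cells, against 1872 and 1239 in CD10- MC26 cells, and only 111 and 190.5 in CD10+ M1B26 cells. The EPCAM differences were 3.65 ± 0.66 apart (adjusted p = 0.0101), a call that was lost without MC26 CD10- replicate 2, M1B26 CD10- replicate 2, MC26 CD10+ replicate 1 or M1B26 CD10+ replicate 1 (adjusted p = 0.0537 to 0.0742). Both genes were thus several times higher on the CD10- than on the CD10+ arrays of M1B26, although CDH1 was below CD10- MCF10A-CT cells, at 1570 and 1669.

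Of 17 regulators and surface genes of epithelium tested, 0 passed between the CD10- lines (median log2 -0.19, against 0.09 for all genes), while the difference of differences passed for 8, all with CD10- above CD10+. The 4 with the smallest p were MAL2, a protein of apical transport (3.35 ± 0.33, adjusted p = 1.50e-04), CDS1, a CDP-diacylglycerol synthase (2.29 ± 0.29, adjusted p = 9.90e-04), ESRP1, the splicing regulator of epithelial isoforms (2.87 ± 0.38, adjusted p = 0.00122), and ST14, the membrane protease matriptase (3.35 ± 0.50, adjusted p = 0.00304). With the mean of all its probe sets ST14 did not pass (1.27, adjusted p = 0.356). ESRP1 had intensities of 438 and 508 in CD10- M1B26 cells, against 1006 and 729 in CD10- MC26 cells, a log2 difference of -0.86 that did not pass (adjusted p = 0.423). Among 10 desmosome genes 3 passed in the difference of differences. These were DSG3 (1.92 ± 0.29), PKP2 (2.11 ± 0.34) and DSP (1.41 ± 0.25), with adjusted p values of 0.00345, 0.00455 and 0.00942. Their log2 differences between the CD10- lines were -0.13, 0.01 and 0.64. In CD10- cells the desmosome list had a median of 0.05 and 0 calls. In CD10+ cells it had a median of -0.78 and 5 genes lower, against 2.56% of all genes tested.

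Among 13 tight junction and polarity genes, MARVELD3 (3.40 ± 0.48, adjusted p = 0.00252) and CRB3 (1.88 ± 0.40, adjusted p = 0.0299) passed in the difference of differences, and 0 passed between the CD10- lines. CLDN1 had the smallest p of this list there, at 1.12 ± 0.36 (adjusted p = 0.438). Among 11 adherens junction genes, CDH1 and CDH3, the placental cadherin of basal cells (1.695 ± 0.28, adjusted p = 0.00525), passed likewise. CTNNB1, which encodes β-catenin, had 2745 and 2439 in CD10- M1B26 cells, against 1783 and 1543 in CD10- MC26 cells. Its log2 difference of 0.64 ± 0.16 did not pass (adjusted p = 0.336). Of 16 basal and myoepithelial genes 0 passed between the CD10- lines, with a median of 0.35. In 6 of them the arrays stood apart upwards, that is, both M1B26 arrays lay above both MC26 arrays, as in 25.0% of all genes tested, and in 0 downwards (10.9% of all genes). In the difference of differences ITGA6, an integrin of the basement membrane contact (2.08 ± 0.30, adjusted p = 0.00261), and DST, a linker of hemidesmosomes to keratin (3.11 ± 0.56, adjusted p = 0.00942), lay above 0, and TPM2, a tropomyosin, below it (-1.20 ± 0.27, adjusted p = 0.0393). With the mean of all probe sets DST was at 0.20 and TPM2 at -0.37, and neither passed (adjusted p = 0.961 and 0.905). Of 14 luminal genes 0 passed in either test. CRB3 kept its call only without M1B26 CD10+ replicate 1 and TPM2 only without MC26 CD10+ replicate 2, with adjusted p values up to 0.146 and 0.189 without the others. DSP lost its call without M1B26 CD10- replicate 2 (adjusted p = 0.0534) or M1B26 CD10+ replicate 1 (adjusted p = 0.0606), and DST without MC26 CD10+ replicate 1 (adjusted p = 0.0625).

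The 4 genes with the CD10- difference farthest above the CD10+ difference were TNNI2, a troponin (4.81 ± 0.70), MIR205 (4.09 ± 0.66), P2RY2, a nucleotide receptor (3.98 ± 0.70), and EPCAM. TNNI2 and P2RY2 were below background in CD10+ M1B26 cells, so the sizes are uncertain, and P2RY2 lost its call without M1B26 CD10- replicate 2 (adjusted p = 0.0604). With a pseudocount of 16 TNNI2 was at 2.36 and did not pass (adjusted p = 0.0571 by limma). The MIR205 probe set reads the long transcript from which miR-205 is cut, not the mature microRNA. It had intensities of 284 and 234 in CD10- M1B26 cells, against 304 and 186 in CD10- MC26 cells, while CD10+ cells had 35.3 and 14.9 in M1B26 and 415 and 346 in MC26. The CD10- arrays of both lines overlapped for this transcript, and its difference of differences passed (adjusted p = 0.00459). Its neighbour probe set, named for the host gene MIR205HG, gave 3.53 ± 1.10 and did not pass (adjusted p = 0.169). The mature miR-205-5p, which acts on the ZEB1 and ZEB2 transcripts, is shown because of this difference, with its seed in capitals (RefSeq, GRCh38.p14, chr1:209432166-209432187, plus strand).
hsa-miR-205-5p: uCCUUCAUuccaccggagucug

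Among the 80 genes were 7 of the 25 mesenchymal genes tested, against 0.657% of all genes tested. ZEB2, the repressor of epithelial genes, had intensities of 22.7 and 0.864 in CD10- M1B26 cells, against 13.2 and 10.4 in CD10- MC26 cells, both near background on average, while CD10+ M1B26 cells had 232 and 313. FPR1, a receptor for formylated peptides, had 87.0 and 40.5 in CD10- M1B26 cells, against 29.1 and 15.6 in CD10- MC26 cells, and 4275 and 3788 in CD10+ M1B26 cells. The CD10- difference lay below the CD10+ difference by the most in FPR1 (-6.57 ± 1.12, adjusted p = 0.00712), CLIC3, an intracellular chloride channel protein (-6.20 ± 1.29, adjusted p = 0.0255), ZEB2 (-5.73 ± 1.19, adjusted p = 0.0255) and PTGFR, the prostaglandin F receptor (-5.46 ± 0.88, adjusted p = 0.00458). CLIC3, ZEB2 and PTGFR were near background in the CD10- cells of both lines, or close to it, so the sizes are uncertain. CLIC3 kept its call only without MC26 CD10+ replicate 2 and ZEB2 only without M1B26 CD10- replicate 1, with adjusted p values up to 0.149 and 0.111 without the others. FPR1 lost its call without M1B26 CD10- replicate 2 (adjusted p = 0.0565), and PTGFR kept it in all 8 fits. With the mean of all probe sets ZEB2 was at -2.15 and did not pass (adjusted p = 0.226).

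Of 25 mesenchymal genes tested, 1 passed between the CD10- lines, CDH11, with a median of 0.38 for the list against 0.09 for all genes, and 10 whose arrays stood apart upwards (25.0% of all genes). In the difference of differences 7 passed, all with CD10- below CD10+. The 4 with the smallest p were COL6A1 and COL6A3, chains of collagen VI (-3.63 ± 0.56 and -3.96 ± 0.66, adjusted p = 0.00345 and 0.00647), TGFB2, a TGF-beta ligand (-3.96 ± 0.62, adjusted p = 0.00392), and S100A4, a calcium-binding protein (-3.18 ± 0.54, adjusted p = 0.00714). S100A4 lost its call without M1B26 CD10- replicate 2 (adjusted p = 0.0554), and COL6A1 with the mean of its probe sets (-1.63, adjusted p = 0.174). TGFB2 had intensities of 34.4 and 24.8 in CD10- M1B26 cells, against 24.2 and 25.3 in CD10- MC26 cells, and 819 and 682 in CD10+ M1B26 cells. CD10- M1B26 cells therefore lay with MC26 for TGFB2.

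FN1, which encodes fibronectin, did not lie there. It had intensities of 1063 and 581 in CD10- M1B26 cells, against 110.5 and 72.5 in CD10- MC26 cells and 38.7 and 76.8 in CD10- MCF10A-CT cells. The arrays did not overlap and the log2 difference was 3.12 ± 0.77, yet the gene did not pass (adjusted p = 0.336). The unsorted MC26 arrays were 33.7 and 395, and FN1 passed when only the 4 arrays compared were fitted (adjusted p = 0.00131) or only the sorted ones (adjusted p = 0.0241). DCN, with the intensities given among the fibroblast markers, had a log2 difference of 2.36 ± 0.75 (adjusted p = 0.423), and it too passed when only the 4 arrays compared were fitted (adjusted p = 0.0257). Of the 25 mesenchymal genes, 20 were higher in replicate 1 than in replicate 2 of CD10- M1B26 cells, as were 69.7% of all genes, and 20 had both CD10+ M1B26 arrays above both CD10- M1B26 arrays, as had 28.2% of all genes. CDH11 was an exception to both counts. What share of these levels came from cells with CD10 in the CD10- fraction was not tested.

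**Figure D3:**
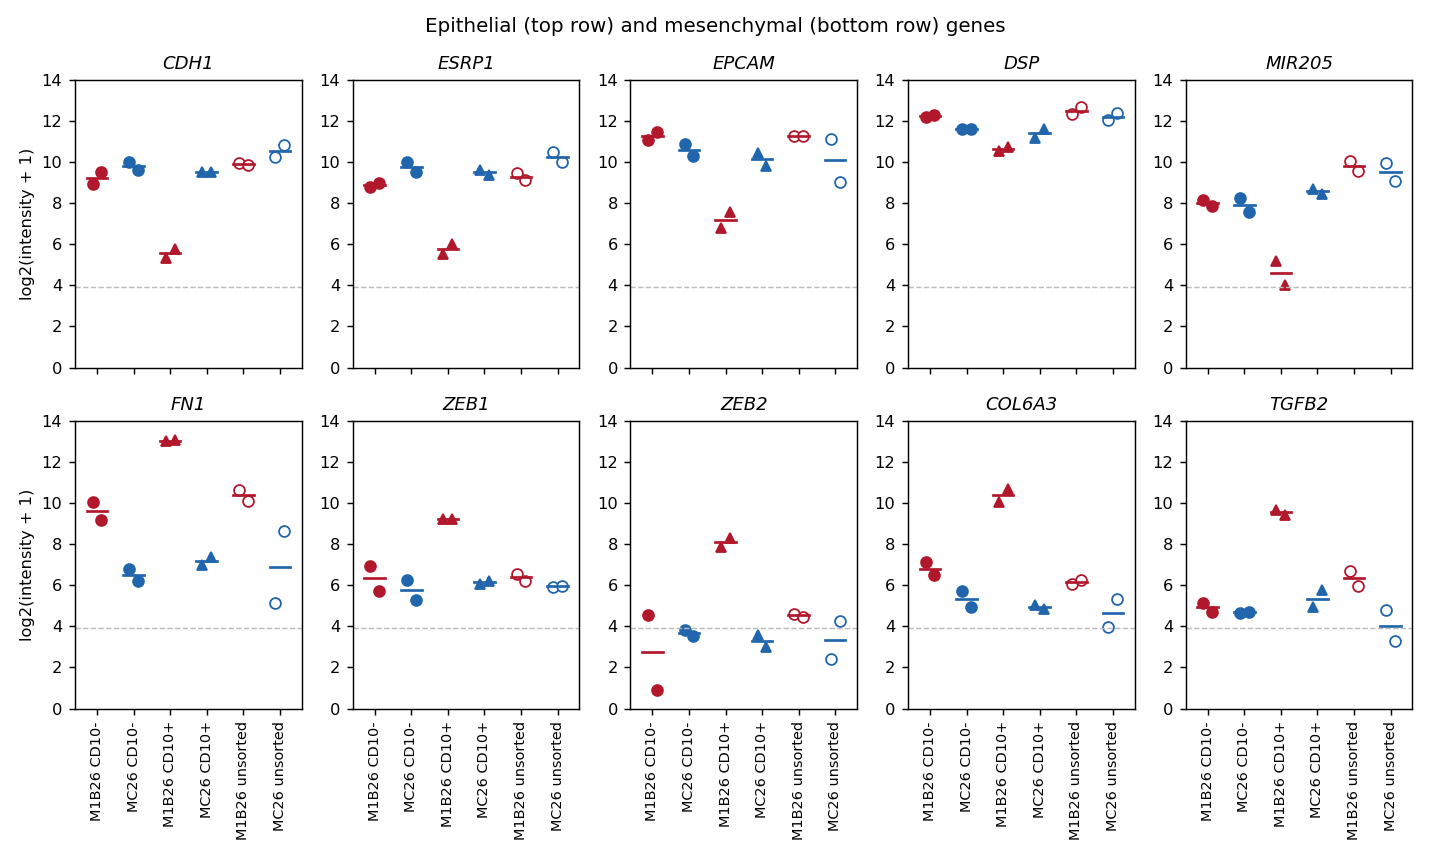
Log2(intensity + 1) of 5 epithelial genes (top) and 5 mesenchymal genes (bottom) in M1B26 (red) and MC26 (blue), sorted CD10- (filled circles), CD10+ (triangles) and unsorted (open circles). Points are single arrays, bars the mean of 2, and the dashed line the background level of 3.93. The group that stands away from the rest in most panels is CD10+ M1B26. In FN1 the CD10- M1B26 arrays also lie above both MC26 arrays.

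Promoters of the 74 genes were searched for CACCTG, an E-box that ZEB and SNAI repressors are known to bind, after the genes were known. The window ran from 250 bases before to 50 after the transcript start in RefSeq (GRCh38.p14), on both strands, the other strand reading CAGGTG. It was present in 33 of the 49 genes with a promoter in the table (67.3%), against 16 of 59 of the 80 genes that ran the other way (27.1%), 23.8% of the tested genes and 20.6% of all promoters. A second search, for the AP-1 letters TGANTCA, gave 9 of 49 and 8 of 59, against 7.71% of all promoters. Of the 10 genes that passed among CD10- cells, 6 had a promoter and 1 held CACCTG. CDH1, EPCAM and ST14 had no promoter sequence available and were not searched. These are descriptions of letters in a window. The 250 bases before the start are shown for the 4 named genes of junctions, polarity, adhesion and epithelial lipid synthesis that hold the E-box there, with each E-box in capitals. They lie at chr4:84582877-84583126 for CDS1, chr2:172427086-172427335 for ITGA6, chr19:6464021-6464270 for CRB3 and chr6:7541421-7541670 for DSP, all on the plus strand of GRCh38.p14.
CDS1: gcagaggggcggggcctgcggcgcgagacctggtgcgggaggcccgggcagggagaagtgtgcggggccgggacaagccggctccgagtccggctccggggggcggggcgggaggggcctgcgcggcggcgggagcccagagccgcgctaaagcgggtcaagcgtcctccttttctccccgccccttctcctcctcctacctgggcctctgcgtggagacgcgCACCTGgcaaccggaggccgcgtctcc
ITGA6: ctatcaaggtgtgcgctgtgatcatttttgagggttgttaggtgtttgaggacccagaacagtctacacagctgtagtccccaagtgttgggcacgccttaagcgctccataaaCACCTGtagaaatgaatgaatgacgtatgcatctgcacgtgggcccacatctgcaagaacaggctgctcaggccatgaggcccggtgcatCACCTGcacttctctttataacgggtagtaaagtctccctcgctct
CRB3: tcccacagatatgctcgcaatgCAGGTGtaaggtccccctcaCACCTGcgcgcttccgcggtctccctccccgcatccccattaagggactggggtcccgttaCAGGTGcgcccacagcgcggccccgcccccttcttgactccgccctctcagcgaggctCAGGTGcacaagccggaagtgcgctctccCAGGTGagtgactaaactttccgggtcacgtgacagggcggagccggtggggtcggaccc
DSP: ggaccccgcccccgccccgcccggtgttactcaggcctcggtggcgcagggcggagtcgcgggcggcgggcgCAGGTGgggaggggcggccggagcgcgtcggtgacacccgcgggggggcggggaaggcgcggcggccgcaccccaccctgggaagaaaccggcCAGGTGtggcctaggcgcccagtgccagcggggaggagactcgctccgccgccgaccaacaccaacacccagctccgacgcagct

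In these stretches CRB3 held 5 E-boxes, ITGA6 and DSP 2 each and CDS1 1. Between the CD10- lines the log2 differences were -0.19 for CDS1, 0.20 for ITGA6, 0.05 for CRB3 and 0.64 for DSP, and all 4 genes were lower in CD10+ than in CD10- M1B26 cells. CRB3 had intensities of 90.6 and 87.3 in CD10- M1B26 cells, against 85.7 and 85.7 in CD10- MC26 cells. CD10+ cells had 23.4 and 14.1 for CRB3 in M1B26 and 63.7 and 70.3 in MC26.

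A stretch of chromosome 6 was higher in CD10- M1B26 cells as a whole. When the tested genes were placed in chromosome order and divided into 293 blocks of 40 neighbours, a division made after the values were seen, the first 2 blocks of chromosome 6 had the highest medians of all. Block 1, from DUSP22 to PAK1IP1 at the end of the short arm, had a median log2 difference of 0.635 and block 2, from TMEM14C to ACOT13, of 0.69, while the other 291 blocks ran from -0.07 to 0.29. Of these 80 genes 74 were above 0, and the arrays stood apart upwards in 57 (71.2%), against 3048 of all genes tested (25.0%), and downwards in 2, against 1328 (10.9%). After quantile normalization the block medians were 0.55 and 0.55, with 0.01 for all genes, and the arrays of all genes stood apart upwards in 2509 (20.6%) and downwards in 2151 (17.7%). No single gene of them passed between the CD10- lines (0 of 80).

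The same stretch was higher on the unsorted arrays, with block medians of 0.43 and 0.51, and not in CD10+ cells, with 0.07 and 0.16 against 0.20 for all genes. Relative to all genes of an array, block 2 stood at 0.32 and 0.605 in CD10- M1B26 cells, against 0.003 and -0.09 in CD10- MC26 cells and -0.16 and -0.14 in CD10- MCF10A-CT cells. Unsorted M1B26 cells had 0.33 and 0.49 for block 2 and CD10+ M1B26 cells -0.23 and -0.18. The CD10- and unsorted M1B26 arrays were thus the 4 highest of the 18 in both blocks, and the CD10+ M1B26 arrays lay at the low end of the rest. Replicate 1 of CD10- M1B26 cells, the one with more MME, was the lower of its pair. Without replicate 2, block 1 had a median of 0.51 with 0.20 for all genes, an excess of 0.31 in place of 0.546, and block 2 an excess of 0.35 in place of 0.597. No test was run on the blocks.

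Genes of very different kinds shared this shift. SOX4, a transcription factor, had intensities of 1037 and 1495 in CD10- M1B26 cells, against 620 and 439.5 in CD10- MC26 cells, a log2 difference of 1.25 ± 0.29 (adjusted p = 0.281). TMEM14C, a mitochondrial porphyrin transporter, had 3497 and 5292 in CD10- M1B26 cells, against 2296 and 2082 in CD10- MC26 cells, a log2 difference of 0.98 ± 0.19 (adjusted p = 0.0956) that passed without M1B26 replicate 1. TMEM14C was also higher in CD10+ M1B26 than in CD10+ MC26 cells (0.85, adjusted p = 0.00829). The chromatin protein DEK had 6352 and 5570 in M1B26 and 3885 and 3380 in MC26, a log2 difference of 0.71 ± 0.18 (adjusted p = 0.336). None of the 3 passed in the fit of all arrays, and they were named after their values were seen, as were those of the next sentence. The desmosome gene DSP, the transcription factor TFAP2A, ADTRP and RNF144B lie in the stretch and were the 4 of its 80 genes among the 74 (0.608% of all genes tested).

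**Figure D4:**
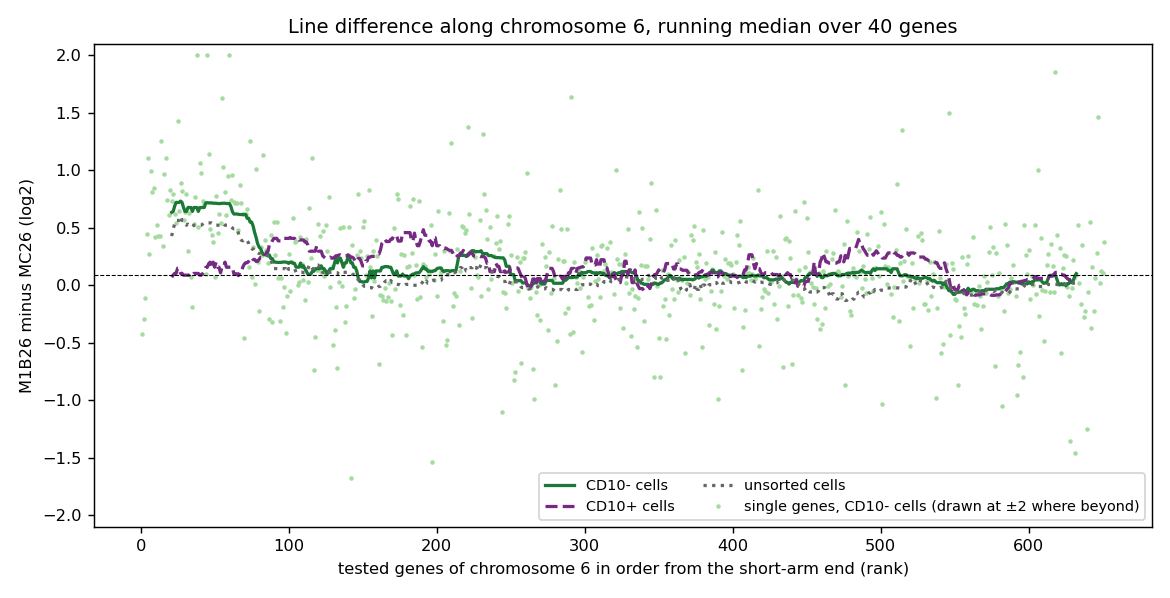
Difference M1B26 minus MC26 (log2) along chromosome 6, as the running median over 40 tested genes in chromosome order, in CD10- cells (solid), CD10+ cells (dashed) and unsorted cells (dotted). Pale points are single genes in CD10- cells, and the thin dashed line is the median of all genes in CD10- cells, 0.09. The CD10- and unsorted lines start high over the first 80 genes and the CD10+ line does not.

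Between the CD10- lines only 10 of all genes tested were called (0.0822%), so 0 calls in a short gene list say little about its genes. Target genes of BMP2 and IL6 gave no call there. Of 38 gene lists with 739 genes tested, 36 had 0 calls between the CD10- lines. The exceptions were the mesenchymal list and the part outside cell division of ENI10, a list the study drew from sorted MCF10A-CT arrays, with SRGN higher and CYP1B1 lower among 103 genes and a median of 0.01. The receptor gene BMPR1B had intensities of 167 and 136 in CD10- M1B26 cells, against 153 and 177 in CD10- MC26 cells (log2 difference -0.13 ± 0.27, adjusted p = 0.999), and the arrays of the lines overlapped. ID1, a direct target of BMP signalling, had 4256 and 4506 in CD10- M1B26 cells, against 6059 and 5552 in CD10- MC26 cells (-0.41 ± 0.31, adjusted p = 0.912). CD10- MCF10A-CT cells had 2982 and 1489 for ID1. Among 24 BMP pathway genes the median was -0.08, with 8 genes whose arrays stood apart downwards and 2 upwards, where all genes tested gave 10.9% downwards and 25.0% upwards. SMAD9 (-1.01 ± 0.46), ID2 (-2.75 ± 1.28) and the antagonist NOG (-1.11 ± 0.57) had the smallest p, and none passed (adjusted p = 0.672, 0.687 and 0.758).

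SOCS3, the feedback inhibitor of IL6 signalling, had intensities of 295 and 269 in CD10- M1B26 cells, against 154 and 143 in CD10- MC26 cells and 41.9 and 104 in CD10- MCF10A-CT cells. The arrays did not overlap, but the log2 difference of 0.92 ± 0.70 did not pass (adjusted p = 0.909). Over 24 IL6 and STAT3 genes the median was 0.08. The 30 genes of the TNF and NF-kB response had a median of -0.22, with 10 genes whose arrays stood apart downwards (10.9% of all genes) and 4 upwards (25.0%). The first of them was NFKBIZ, an atypical NF-kB inhibitor, with 256 and 383 in CD10- M1B26 cells, against 685 and 989 in CD10- MC26 cells (log2 difference -1.39 ± 0.37, adjusted p = 0.351). Interferon response genes had a median of 0.02 over 35 genes. HERC5, an interferon-induced ISG15 ligase, came nearest, with 28.4 and 32.5 in CD10- M1B26 cells, against 83.04 and 82.01 in CD10- MC26 cells (-1.41 ± 0.28, adjusted p = 0.129). It passed in the fit without an intensity trend (adjusted p = 0.0477).

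Adhesion and signalling lists beyond these had no call either, where 0.0822% of all genes tested were called. The 24 integrin and matrix adhesion genes had a median of 0.36 and 12 genes whose arrays stood apart upwards (25.0% of all genes), led by the integrin subunit ITGB1 (0.58 ± 0.15, adjusted p = 0.353). The 20 TGF-beta genes had a median of 0.02, with the receptor TGFBR2 at 0.75 ± 0.20 (adjusted p = 0.365). For 16 Notch genes the median was 0.28. Of these the target HES1 was at -0.89 ± 0.24 and the feedback inhibitor NRARP at 1.03 ± 0.34, both short of the threshold (adjusted p = 0.354 and 0.473). Among 14 matrix metalloproteinases and inhibitors, SERPINE2 was at 1.31 ± 0.33 and TIMP3 at -2.103 ± 0.58 (adjusted p = 0.336 and 0.394). TIMP3 had 154 and 31.4 in CD10- M1B26 cells, against 319.5 and 289 in CD10- MC26 cells, and passed without M1B26 replicate 1 (adjusted p = 0.0254).

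The 32 hypoxia and glycolysis genes had a median of 0.32, with 14 genes apart upwards (25.0% of all genes) and 1 downwards (10.9%). After quantile normalization the median was 0.09. PKM, a pyruvate kinase, had intensities of 2334 and 2478 in CD10- M1B26 cells, against 1054 and 1063 in CD10- MC26 cells. Its log2 difference of 1.18 ± 0.32 did not pass (adjusted p = 0.36) in the fit of all groups and passed when only the 4 arrays compared were fitted (adjusted p = 0.0384). LDHA (0.58 ± 0.16), PGK1 (0.46 ± 0.14) and PGAM1 (0.55 ± 0.16), enzymes of glycolysis, followed with adjusted p values of 0.395, 0.422 and 0.422. Among 24 CDK inhibitors and p53 targets TP53INP1 was at 1.24 ± 0.33 (adjusted p = 0.365). The 49 cell division genes of ENI10 had 0 calls, a median of -0.05 and 19 genes above 0, with 14 apart downwards (10.9% of all genes) and 3 upwards (25.0%), and AURKB, a mitotic kinase, at -0.73 ± 0.36 (adjusted p = 0.729). In the ENI10 part outside cell division 12 of 103 genes had a CD10- difference below the CD10+ difference (0.657% of all genes) and 1 above it (0.608%). After CYP1B1, these were led by COL12A1, a fibril-associated collagen (-3.12 ± 0.40, adjusted p = 0.00103), MLPH, a melanosome transport protein (-2.17 ± 0.30, adjusted p = 0.00226), and the glycosyltransferase GALNT15 (-5.00 ± 0.83, adjusted p = 0.00621).

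**Figure D5:**
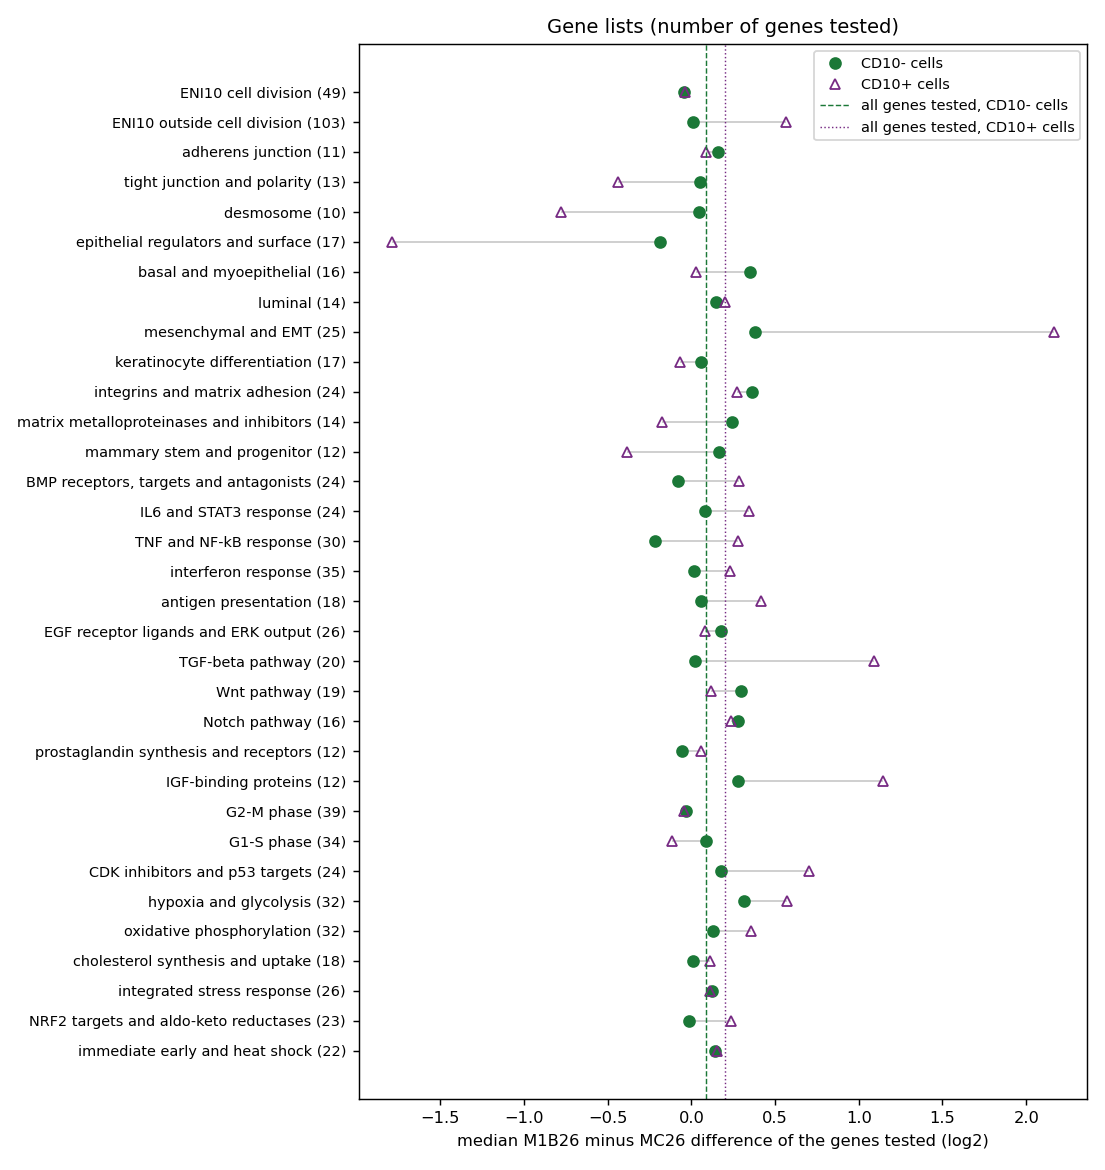
Median difference M1B26 minus MC26 (log2) over the tested genes of 33 gene lists, in CD10- cells (filled circles) and CD10+ cells (open triangles), with the number of genes tested in brackets. Vertical lines mark the medians of all genes, 0.09 in CD10- cells and 0.20 in CD10+ cells. The circles stay between -0.22 and 0.38, while the triangles reach 2.17 for mesenchymal genes and -1.79 for epithelial regulators and surface genes.

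Unsorted cells gave the last comparison. The line difference in CD10- cells and that in unsorted cells differed for 0 genes by limma, with 265 at an unadjusted p under 0.05. Leaving out MC26 unsorted replicate 1 gave 2 genes and leaving out MC26 unsorted replicate 2 gave 1. The median SE of such a difference of differences was 0.419 on the log2 scale, and differences several times that size could be missed. MALAT1, whose gap was several times its own SE, did not pass. The 0 genes therefore do not show that the line differences were alike. Unsorted cells also hold CD10- cells, so the groups compared share a fraction.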

How the data were processed

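Gene expression was measured on 18 arrays (9 groups, n = 2). Per the labels' processing notes, the authors used Affymetrix Expression Console and MAS5. The deposited values are linear intensities, scaled by the authors to a median of 16.7 on every array and not quantile normalized. RMA, named in the published methods, was not applied. The number of arrays limits the precision (median SE 0.296).

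Of 54675 probe sets, 41091 had 1 gene in the annotation given, 1801 several and 11721 none, and 62 were controls. Among the 41091, 54 had a gene number absent from the RefSeq table and kept their annotated name. The brightest probe set was used for each of 19775 genes, as log2(intensity + 1), a scale that understates changes of low genes. Genes with a mean over the 18 arrays above log2 3.93 (intensity 14.3), the median of all probe sets and taken as the background level, were tested. A group mean under that level is called near background. R 4.3.3 and limma 3.58.1 were used (lmFit, eBayes with trend, 9 group means, two-sided), tested on simulated data. Errors after ± are SEs.

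Genes named were the 12 largest changes each way past the threshold (10 genes in all), the 4 largest each way for differences of differences, up to 4 per list by p, and MME, BMPR1B, ID1, SOCS3, CDKN2A and CDH1. The comparison, lists and tests were chosen with earlier results of these data known. P-values measure only the spread between arrays called biological replicates. Same-numbered CD10- and CD10+ arrays of a line deviated together (r = 0.185 to 0.635).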

Additional observations from a re-analysis of the deposited data

Results flagged for a closer look

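The results below drew attention because the line difference in CD10- cells minus that in CD10+ cells passed the test of the difference itself, on the log2 scale. Among epithelial genes it was 3.65 for EPCAM, 3.34 for CDH1, 1.695 for CDH3, 3.40 for MARVELD3, 1.88 for CRB3, 1.92 for DSG3, 2.11 for PKP2, 1.41 for DSP, 3.35 for MAL2, 2.29 for CDS1, 2.87 for ESRP1 and 3.35 for ST14. Among basal genes it was 2.08 for ITGA6, 3.11 for DST and -1.20 for TPM2. For TNNI2, MIR205 and P2RY2 it was 4.81, 4.09 and 3.98.

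Mesenchymal genes had values below 0, at -5.73 for ZEB2, -3.63 for COL6A1, -3.96 for TGFB2, -3.96 for COL6A3 and -3.18 for S100A4. The other genes below 0 were FPR1 (-6.57), CLIC3 (-6.20), PTGFR (-5.46), CYP1B1 (-3.20), COL12A1 (-3.12), MLPH (-2.17) and GALNT15 (-5.00). Of these 30 genes, 20 passed in each of the 8 fits with 1 array left out, and CLIC3, CRB3, TPM2 and ZEB2 passed in 1. With the mean of all probe sets 6 of the 30 did not pass, namely ZEB2, DST, TPM2 and 3 of those 20, ST14 (1.27, adjusted p = 0.356), COL6A1 (-1.63, adjusted p = 0.174) and COL12A1 (-1.81, adjusted p = 0.0633). TNNI2 did not pass with a pseudocount of 16 (2.36, adjusted p = 0.0571 by limma).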

How the results depend on the processing

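The number of genes that passed between the CD10- lines depended on the fit. Against 10 genes (6 higher, 4 lower), the filter at the upper quartile gave 4 (2 higher, 2 lower), the mean of all probe sets 4 (4 and 0, all among the 10), only the 4 arrays compared 13 (11 and 2), only the 12 sorted arrays 7 (6 and 1), and a fit without the MCF10A-CT arrays, an alternative chosen after seeing the data, 5 (4 and 1). The unmoderated test gave 0 genes (0 and 0). An unpaired t-test on the 4 arrays also gave 0 after adjustment (0 and 0), with 767 unadjusted (547 higher, 220 lower). With 1 array left out there were 9 to 21 genes, 5 to 8 higher and 1 to 16 lower, of which 4 to 7 were among the 10. The 21 came without M1B26 replicate 1, and the lone array left was assumed to vary like the other groups.

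The replicate numbers did not pair the lines (r = 0.0185 between the deviations of the CD10- groups). A fit with the replicate block gave 7 genes (5 higher, 2 lower) and 189 differences of differences. Between the fractions of 1 line the numbers moved together, and the line-by-replicate random block gave 10 genes between the CD10- lines, 7 of them among the 10, with FN1 among the calls (adjusted p = 0.00496).

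For the difference of differences, against 154 genes, the upper quartile filter gave 99, only the arrays compared 471, the unmoderated test 39, the line-by-replicate random block 693, and single arrays left out 68 to 166. For CD10- against unsorted cells, single arrays left out gave 0 to 2.

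Log2 differences of single genes that did not pass turned sign in 14 cases, each of them 1 gene under 1 alternative. With the mean of probe sets these were CDKN2A 0.20, CDH1 0.0788, TOP2A 0.34, KRT7 -0.25, CD44 -0.17 and LIFR -0.27. After quantile normalization they were PERP -0.0365, KRT7 -0.0595 and TIMP1 -0.10. With 1 array left out, BMPR1B ran from -0.28 to 0.0195, the ID1 difference of differences from -0.43 to 0.0058, DSC2 from -0.11 to 0.77 and KRT8 from -0.0401 to 0.80, and LIFR from -0.0854 to 1.65. The other values for single genes kept their side of the threshold in 2248 cases, lost it in 144 and gained it in 10. The causes were not tested. Signal near background limits the size of CDH11, KIR2DL5A, AUTS2, ADD2 and PCSK1N.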
